A study of Mus musculus with 12 samples.

Results

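The genes described here are 10 sensors of cytosolic or endosomal nucleic acid and the proteins directly attached to them, taken by name from the 43278 gene symbols of the count table of mouse peritoneal macrophages (PMφs). They are Ddx58 (RIG-I), Ifih1 (MDA5), Dhx58 (LGP2), Trim25, Mavs, Tlr3, Eif2ak2 (PKR), Zbp1, Mb21d1 (cGAS) and Tmem173 (STING). All 10 are in the table and all 10 passed the filter on low values in every comparison. Poly(A) RNA was sequenced from 12 libraries in 4 groups of 3, to ask how loading of PMφs with oxidized low-density lipoprotein (oxLDL) bears on their response to LPS, a bacterial ligand of TLR4. Control PMφs received neither agent, the oxLDL group was kept with 100 µg/ml human oxLDL for 24 h, the LPS group received 10 ng/ml LPS alone, and the oxLDL+LPS group received LPS at that dose after oxLDL. The duration of LPS exposure is not stated for these libraries. All groups were wild-type C57BL/6J cells from mice of 8 to 12 wk. Cells were drawn to the peritoneum with thioglycolate, collected by lavage after 4 d and used as adherent cells after 18 h in culture. The methods describe pooling over littermates of both sexes before the cells were divided among the groups. By that description the 3 libraries of a group stand for pools, although some held transcripts of almost only one sex (below). P-values measure the spread between these libraries.

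RIG-I and MDA5 are helicases that bind viral RNA in the cytosol and signal through MAVS, an adaptor on mitochondria, to type I interferon and NF-κB. LGP2 is a related helicase that lacks the signaling domain and tunes the other members of the family. TLR3 detects double-stranded RNA in endosomes, PKR is a kinase that halts translation when it binds such RNA, and ZBP1 detects left-handed nucleic acid and can start necroptosis. cGAS makes a cyclic dinucleotide when it meets DNA in the cytosol, and STING relays that messenger. Macrophages carry all of these routes, and many of the genes are themselves targets of interferon.

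The values are the authors' normalized counts, which behave as read counts divided by 1 factor per library. They summed to 17.2 to 17.7 M in libraries without LPS and to 22.1 to 26.4 M in those with LPS, and they imply 16.7 to 26.2 M reads per library. All 5 genes taken as a check of LPS treatment (Tnf, Il1b, Il6, Nfkbia and Ptgs2) rose in both comparisons with LPS. The macrophage markers that the table holds, 6 of 7, summed to at least 226278 in every library. Markers of T cells summed to at most 14 and those of neutrophils to at most 249, with Ly6g at 0 in every library. Markers of mesothelial cells and fibroblasts summed to between 2381 and 15240 and ran highest in replicate number 1 and lowest in number 3, as in Col1a1 at 12012, 5517 and 1965 in LPS libraries 1, 2 and 3. The female transcript Xist and the Y-linked Ddx3y were at 1 and 1156 in control library 1 and at 2 and 1132 in oxLDL library 1. In LPS library 1 they were at 6331 and 459, and in oxLDL+LPS library 1 at 3812 and 439. The libraries numbered 1 with and without LPS therefore differed in their mix of male and female cells, whereas libraries 2 had Ddx3y at 0 to 2 in all 4 groups. Control and oxLDL libraries 1 and all libraries 2 thus did not show the mix of both sexes that the methods describe. The LPS comparisons of the sensor genes, and the counts of all genes called in them, were also computed without number 1. Results for the lists of other genes, the levels per length and the likeness between genes were not. In RNA of a whole culture, fewer cells of a type and less RNA per cell cannot be told apart.

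RefSeq windows of 300 bases around the start site (250 before and 50 after, GRCm38.p6) were available for 7 of the 10 genes. They were searched on both strands for the core of the interferon-stimulated response element, GAAA and GAAA with 2 free bases (N) between them, and for a form of the κB site, GGG and TTTCC with 2 free bases between them. The first motif was in 3.44% of 32851 such windows and the second in 1.63%. The windows of Ddx58, Ifih1 and Eif2ak2 held the first motif, just after the RefSeq start. That of Tlr3 held the second, at positions -211 to -202 from its RefSeq start. GENCODE places Tlr3 at chr8:45395665-45411080 on the minus strand, with a start further upstream. By that annotation the Tlr3 match lies inside the gene and not before it. Each match is printed 5′ to 3′ on the strand of the gene (minus in all 4), with the motif in capitals and as its reverse complement in Ddx58.
Ddx58 (chr4:40239804-40239833): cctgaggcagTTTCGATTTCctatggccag
Ifih1 (chr2:62646206-62646235): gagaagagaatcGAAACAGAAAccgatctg
Eif2ak2 (chr17:78882535-78882564): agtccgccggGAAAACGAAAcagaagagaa
Tlr3 (chr8:45410572-45410601): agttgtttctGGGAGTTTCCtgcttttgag
Neither motif was found in the windows of Mavs, Mb21d1 and Trim25, although Mb21d1 and Trim25 also rose with LPS. A match of these letters is a description of the sequence and not a measured binding site. Dhx58, Zbp1 and Tmem173 had no window in the table.

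LPS raised 9 of the 10 genes in control PMφs and lowered 1, Mavs (limma, adjusted p under 0.1, for which 31.4% of the 13023 genes tested were higher and 30.3% lower). The rises ran from 1.34-fold in Tmem173 to 113-fold in Zbp1. In 9 of the 10 genes the LPS and control libraries did not overlap, as in 63.2% of all genes tested, and Tmem173 was the exception. The median log2 fold change of the 10 genes was 4.02, against a median of -0.0010 over all genes tested. In oxLDL-loaded PMφs, LPS raised 8 of the 10 genes and lowered 0, where 28.2% of 12900 genes tested rose and 26.3% fell, and the groups did not overlap for the same number, 8, as in 57.6% of all genes. The other two were Mavs and Tmem173. The rises of the 8 genes held in both comparisons under every alternative computed. With number 1 left out of the blocked fit, LPS raised 9 and lowered 1 of the 10 in control PMφs and raised 8 in oxLDL-loaded PMφs.

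**Figure D1:**
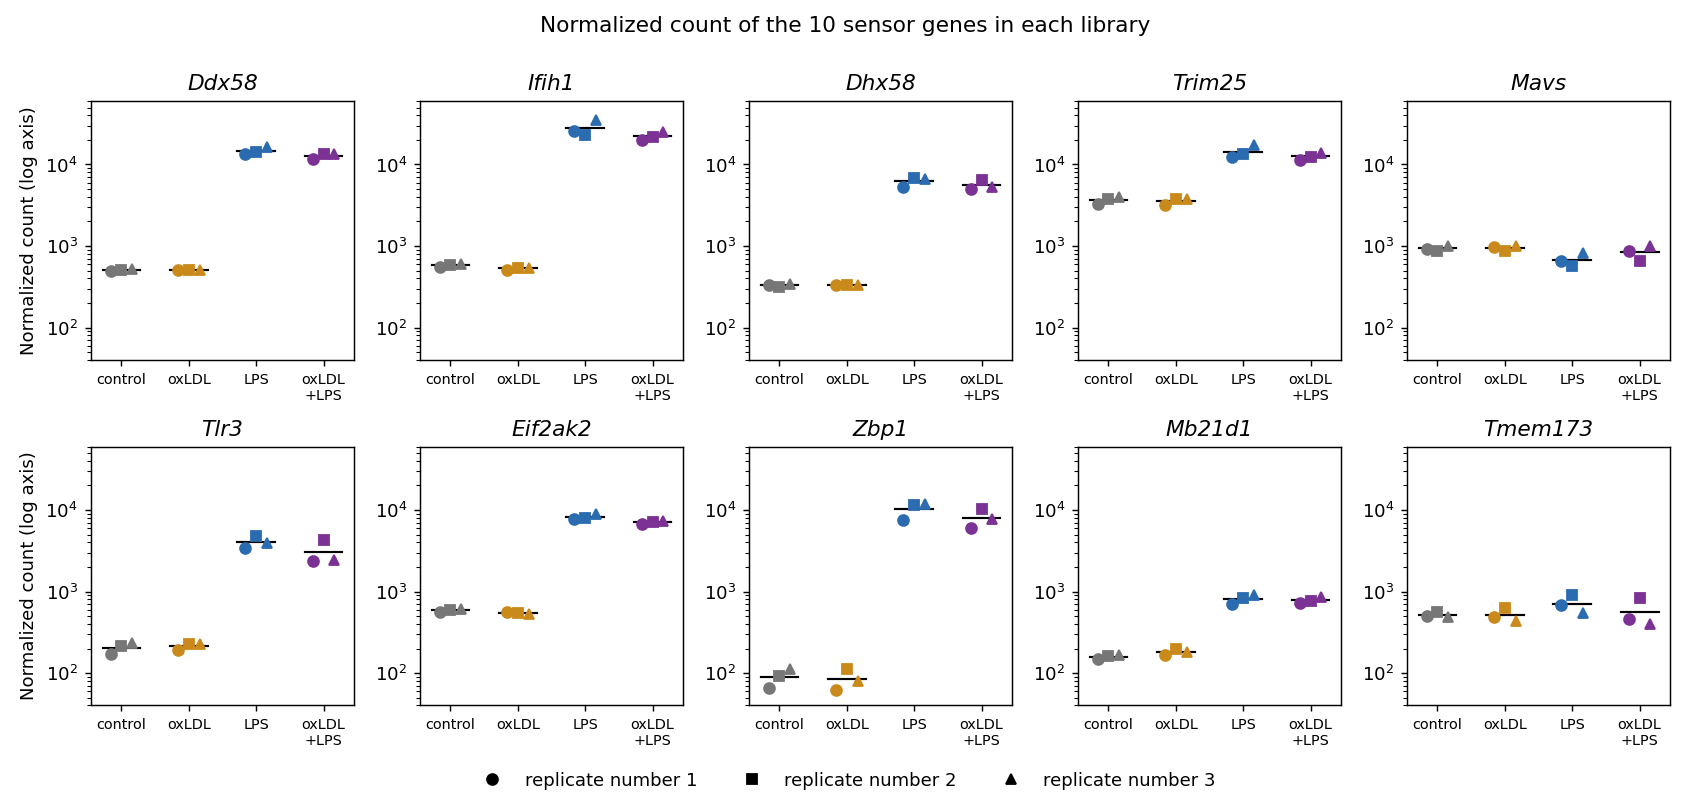
Normalized count (log axis) of each of the 10 genes in each of the 12 libraries, by group, with the replicate number as the symbol and a line at the group mean. In 8 genes every LPS library sits above every library without LPS, whereas Mavs and Tmem173 stay between 403 and 1013 in all 12 libraries.

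Ddx58 encodes RIG-I, which recognizes short RNA with a triphosphate end (GRCm38 chr4:40203773-40239828, minus strand). Its normalized count was 497, 504 and 523 in control libraries 1, 2 and 3 and 13465, 14197 and 16446 in LPS libraries. The LPS values lay far above the control values, with no overlap. The log2 fold change was 4.85 (SE 0.10, 28.8-fold), and its adjusted p of 7.39e-08 equaled the smallest of any gene tested in that comparison. In oxLDL-loaded PMφs it went from 503, 508 and 503 to 11623, 13279 and 13467 with LPS, a log2 fold change of 4.66 (SE 0.08).

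Ifih1 encodes MDA5, the sensor of long double-stranded RNA (chr2:62595798-62646255, minus strand). It went from 556, 590 and 594 in control libraries to 25778, 23096 and 35076 with LPS, a log2 fold change of 5.57 (SE 0.15, 47.4-fold, adjusted p = 2.38e-07). In oxLDL-loaded PMφs it went from 512, 542 and 535 to 19984, 21500 and 25044, a log2 fold change of 5.38 (SE 0.10, 41.6-fold). Library 3 was the highest in both LPS groups.

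Dhx58 encodes LGP2 (chr11:100694884-100704271, minus strand). Control libraries held 336, 312 and 342 and LPS libraries 5287, 6771 and 6647, a log2 fold change of 4.23 (SE 0.12, 18.7-fold, adjusted p = 2.38e-07). With oxLDL the values were 330, 333 and 332 before and 5067, 6477 and 5273 after LPS, a log2 fold change of 4.07 (SE 0.11, 16.8-fold). Of the 3 RIG-I-like receptors, Dhx58 had the smallest fold change in both comparisons.

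Trim25 encodes a ubiquitin ligase that acts in RIG-I activation (chr11:88999376-89020293, plus strand). Per length it was the most abundant of the 10 before LPS. It held 3235, 3753 and 3950 in control libraries and reached 12220, 13263 and 17260 with LPS. The log2 fold change was 1.96 (SE 0.15, 3.88-fold, adjusted p = 2.62e-05). With oxLDL it went from 3179, 3750 and 3810 to 11386, 12386 and 13822, a log2 fold change of 1.81 (SE 0.11). Among the 8 genes called higher in both comparisons it had the smallest rise.

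Mavs encodes the adaptor that RIG-I and MDA5 share (chr2:131234063-131248025, plus strand). Its normalized count was 927, 870 and 1013 in control libraries and 652, 571 and 815 in LPS libraries. Every LPS library was below every control library, and the log2 fold change was -0.48 (SE 0.14, adjusted p = 0.0234). The adjusted p stayed between 0.000104 and 0.0820 over the alternatives, those without number 1 included. In oxLDL-loaded PMφs Mavs was at 980, 877 and 1001 before and 877, 652 and 1008 after LPS, so that the groups overlapped, and the log2 fold change was -0.19 (95% interval -0.57 to 0.19, adjusted p = 0.369).

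Tlr3 encodes the endosomal receptor for double-stranded RNA (chr8:45395665-45411080, minus strand). It went from 171, 212 and 232 in control libraries to 3461, 4761 and 3906 with LPS, a log2 fold change of 4.29 (SE 0.16, 19.6-fold, adjusted p = 6.48e-07). In oxLDL-loaded PMφs it went from 194, 228 and 228 to 2370, 4269 and 2431, a log2 fold change of 3.74 (SE 0.23, 13.4-fold). Library 2 was the highest of its group with LPS, whether or not oxLDL had been given.

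Eif2ak2 encodes PKR (chr17:78852564-78882573, minus strand). Control libraries held 562, 591 and 609 and LPS libraries 7851, 8042 and 9009, a log2 fold change of 3.82 (SE 0.09, 14.1-fold, adjusted p = 1.33e-07). With oxLDL it went from 567, 538 and 530 to 6681, 7103 and 7321, a log2 fold change of 3.69 (SE 0.08, 12.9-fold). Its libraries differed little within a group, with an SD of 3.57% to 7.48% of the mean.

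Zbp1, the sensor that can start necroptosis, had the lowest level per length of the 10 genes before LPS and the largest fold change (chr2:173206612-173218923, minus strand). Control libraries held 66, 92 and 113 and LPS libraries 7544, 11647 and 11719, a log2 fold change of 6.82 (SE 0.24, 113-fold, adjusted p = 5.42e-07). With oxLDL it went from 62, 111 and 79 to 6018, 10354 and 7739, a log2 fold change of 6.57 (SE 0.26, 94.9-fold). In these data Zbp1 thus changed from the least to among the most abundant of the 10 genes per length. Its spread was also wide, with an SD of 23.2% to 29.6% of the mean in the 4 groups.

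Mb21d1 encodes cGAS (chr9:78430526-78443237, minus strand, named Cgas in GENCODE). It rose from 150, 160 and 168 in control libraries to 706, 824 and 896 with LPS, a log2 fold change of 2.33 (SE 0.12, 5.03-fold, adjusted p = 4.24e-06). With oxLDL it went from 168, 195 and 181 to 724, 767 and 848, a log2 fold change of 2.10 (SE 0.11, 4.28-fold). Both LPS groups lay above both groups without LPS.

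Tmem173 encodes STING, the partner of cGAS (chr18:35733679-35740554, minus strand). It held 504, 558 and 485 in control libraries and 678, 896 and 543 in LPS libraries, so that the lowest LPS library was below the highest control library. The log2 fold change of 0.42 (SE 0.18) had an adjusted p of 0.0792. That call was lost when any one of the 6 libraries other than LPS library 3 was left out, with log2 fold changes of 0.24 to 0.60 over the 6 and an adjusted p of up to 0.188. In oxLDL-loaded PMφs the values were 485, 621 and 432 before and 465, 827 and 403 after LPS, a log2 fold change of 0.08 (95% interval -0.56 to 0.73, adjusted p = 0.829). Library 2 was the highest for Tmem173 and the lowest for Mavs in all 4 groups, a pattern chosen after the values were seen.

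The direction of Tmem173 and the size of the Mavs difference also rested on how libraries were scaled. With every library brought to the same total, the median log2 fold change of all genes with LPS moved to -0.48 in control and to -0.40 in oxLDL-loaded PMφs. The genes called higher and lower in control PMφs then numbered 2210 and 7200 in place of 4093 and 3946, and 2902 and 5266 with upper-quartile scaling, where the median was -0.23. In oxLDL-loaded PMφs they numbered 2055 and 6618, and 2599 and 4968 with upper-quartile scaling, in place of 3633 and 3397. With equal totals Mavs was at -0.96 and Tmem173 at -0.059 in control PMφs, and at -0.58 (adjusted p = 0.0182) and -0.31 (adjusted p = 0.357, or 0.0649 with the replicate number as a block) in oxLDL-loaded PMφs. Mavs stayed below 0 with LPS under every alternative computed. The other 8 genes remained higher under each scaling, with a smallest log2 fold change of 1.42, that of Trim25 in oxLDL-loaded PMφs.

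**Figure D2:**
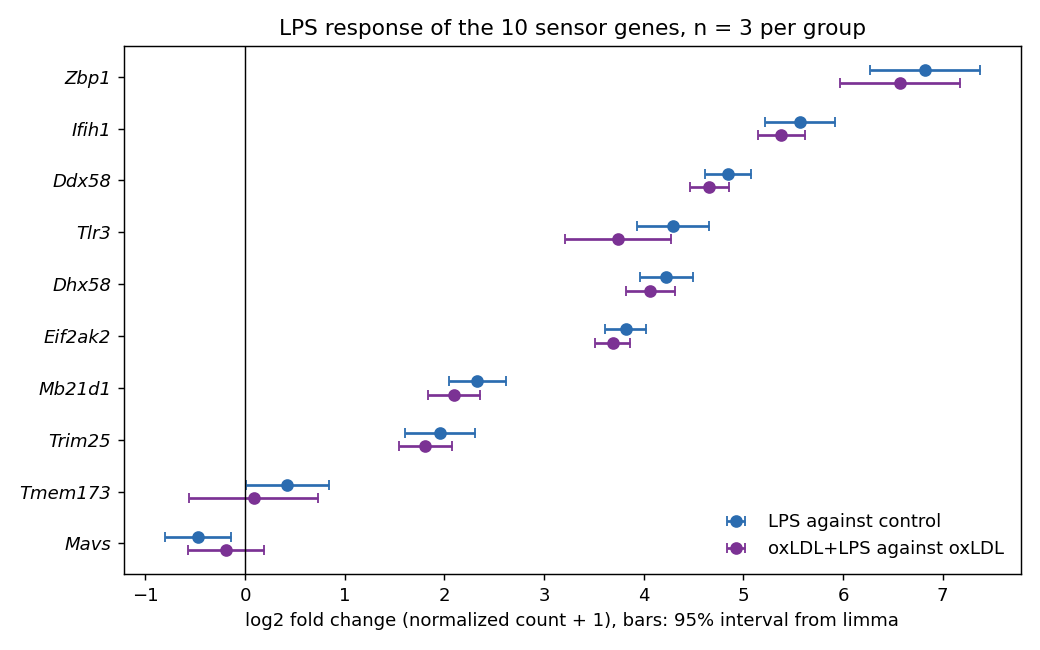
Log2 fold change with LPS of each of the 10 genes in control (blue) and oxLDL-loaded (purple) PMφs, with 95% intervals from limma, 3 libraries a group. The genes run from Zbp1 at 6.82 and 6.57 to Mavs at -0.48 and -0.19, and the purple point is the lower of each pair except in Mavs.

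Counts of marker genes of other cells also differed with LPS. The 5 neutrophil markers summed to 31 to 49 without and 74 to 249 with LPS, with S100a9 and Ly6g at 0 in both LPS groups. S100a8 made up the higher sum, at 31 to 49 without and 74 to 248 with LPS, whereas Mpo and Elane were at 5 or less without and 1 or less with LPS. The 4 markers of plasmacytoid dendritic cells summed to 10 to 33 without and 38 to 77 with LPS, with Klk1 at 0 in both LPS groups. Siglech was at 0 in control, oxLDL and oxLDL+LPS libraries and at 0, 0 and 3 in LPS libraries. For LPS against control, 2 of the 4 passed the filter and 1 was called higher. The part of other cells in the rises was not tested. Genes on the opposite strand overlap exons of Dhx58 (Dhx58os), Eif2ak2 (Gm26637 and n-R5s29), Mb21d1 (Gm8093) and Tlr3 (Gm45542). Those of the 5 that the table holds were at 100 or less in every library, and the sources used here do not say whether counting used the strand.

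Per kb of exon, the order of the 10 genes in control PMφs was Trim25 at 634 ± 64.2 normalized counts per kb (SD, n = 3), Mavs at 280 ± 21.5, Tmem173 at 188 ± 13.8, Eif2ak2 at 115 ± 4.64, Dhx58 at 101 ± 4.85, Ddx58 at 72.1 ± 1.91, Ifih1 at 71.0 ± 2.56, Tlr3 at 39.4 ± 5.97, Mb21d1 at 38.6 ± 2.19 and Zbp1 at 25.6 ± 6.67. Neighbors in that order had separate ranges except Ddx58 with Ifih1 and Tlr3 with Mb21d1. The adaptors Mavs and Tmem173 thus stood above all of the sensors before LPS. With LPS the order became Ifih1 at 3427 ± 770, Zbp1 at 2920 ± 677, Trim25 at 2476 ± 462, Ddx58 at 2086 ± 220, Dhx58 at 1906 ± 252, Eif2ak2 at 1623 ± 121, Tlr3 at 776 ± 127, Tmem173 at 257 ± 65.0, Mavs at 203 ± 37.2 and Mb21d1 at 196 ± 23.2. Among the first 6 each range overlapped the next, and so did those of the last 3, so the order within these sets is not resolved by 3 libraries. With LPS, the 2 adaptors were below every sensor but Mb21d1. In oxLDL-loaded PMφs the same genes held the first 7 places, in the same order as without oxLDL, both before and after LPS, and places 8 and 9 were exchanged (Mb21d1 and Tlr3 before, Mavs and Tmem173 after LPS).

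**Figure D3:**
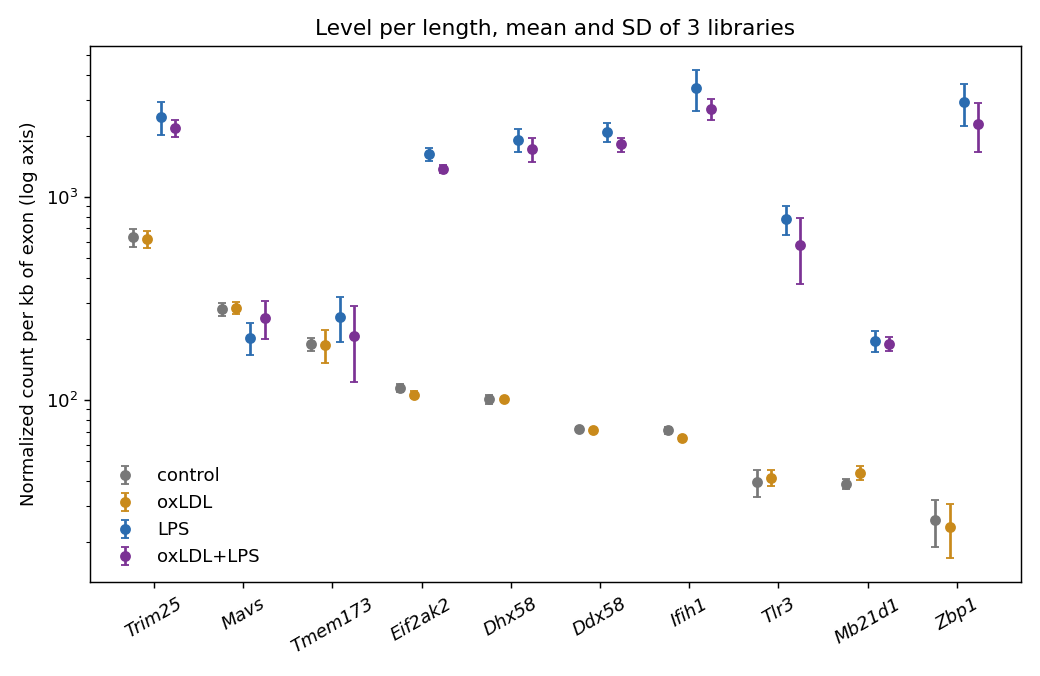
Normalized count per kb of exon (log axis) of the 10 genes in the 4 groups, as mean and SD of 3 libraries, ordered by the control level. Gray points (control) fall from 634 for Trim25 to 25.6 for Zbp1 and gold points (oxLDL) run from 622 to 23.8 for the same genes, whereas blue and purple points (with LPS) put Ifih1 and Zbp1 above Trim25.

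The genes whose pattern over the 12 libraries was most like each sensor were taken by Pearson's r of the log2 value among 13455 genes. They were Slfn8, Pyhin1 and Rsad2 for Ddx58, with r from 0.9993 to 0.9995. For Ifih1 they were Parp12, Znfx1 and Slfn8, for Dhx58 Tap1, Nt5c3 and Gbp7, for Zbp1 Ifi203, Oas1a and Oasl2, and for Eif2ak2 Pyhin1, Bst2 and Slfn8, with r from 0.9990 to 0.9995. For Tlr3 they were Aida, Psme1 and Sp110, for Mb21d1 Cdkn1a, Ppip5k2 and Nrp2, and for Trim25 Tank, Ube2d2a and Malt1, with r from 0.9972 to 0.9979. The 12 libraries share the difference between LPS and no LPS, so that 17.7% to 18.0% of all genes had r over 0.9 with each of these 8. Mavs and Tmem173 were unlike most genes, with 0.386% and 0.0223% of genes over 0.9. The closest to Mavs were Hsph1 (r = 0.977), Sephs2 and Ptpdc1, and the closest to Tmem173 were Erlec1 (r = 0.925), Gm12195 and Abcb1b. Of these, Gm12195 was near the filter on low values, at 3 to 18 over the 12 libraries.

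A list of 75 other genes of these routes was chosen by function, with earlier results of these data known, so its counts are a description. Of these, 70 passed the filter, and LPS raised 43 and lowered 11 of them in control PMφs, with a median log2 fold change of 0.66. Of all genes tested, 31.4% rose and 30.3% fell. In oxLDL-loaded PMφs it raised 40 and lowered 12, where 28.2% of all genes rose and 26.3% fell. With the replicate number as a block, LPS raised 45 and lowered 12 in control PMφs, where 4507 of 13023 genes rose and 4441 fell. In oxLDL-loaded PMφs that fit gave 43 and 12, where 4133 of 12900 genes rose and 4052 fell. The 3 largest rises in control PMφs were those of Irf7 (6.77, SE 0.19), the transcription factor that amplifies interferon-α, of Ddx60 (5.73, SE 0.17), a helicase linked to RIG-I, and of Irf1 (5.11, SE 0.20). Irf7 went from 252, 395 and 248 to 27979, 33006 and 34833. The 3 largest falls were those of Nlrc3 (-3.19, SE 0.22), an inhibitor of STING signaling, Trim65 (-1.60, SE 0.24), a ubiquitin ligase of MDA5, and Nlrx1 (-1.54, SE 0.14), an inhibitor of MAVS signaling. Nlrc3 went from 499, 580 and 430 to 59, 66 and 40. In oxLDL-loaded PMφs the 3 largest falls were those of Nlrc3 (-3.08), Enpp1 (-1.30), which degrades the cGAS product, and Nlrx1 (-1.27).

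The counts by role are a description, to be set beside the 31.4% of all genes that rose and the 30.3% that fell. In control PMφs, 8 of 9 transcription factors rose and Irf3, the factor phosphorylated downstream of MAVS and STING, gave -0.16 (adjusted p = 0.304). Of 15 adaptors and kinases, 9 rose (10 with the replicate number as a block) and 0 fell. Among those that rose were Ikbke (1.94) and Tbk1, the kinases of IRF3, with Tbk1 at 1511, 1523 and 1686 before and 4292, 4070 and 5014 after LPS. Of 12 cofactors and brakes of the RIG-I-like receptors tested, 8 rose and 3 fell. Of 9 regulators of cGAS and STING and other DNA sensors, 3 rose and 3 fell, shares close to those of all genes. With the block, 4 of these rose and 4 fell. In the endosomal route 4 of 5 rose, namely Tlr7 (by 2.67), Tlr8, Unc93b1 and Cd14, and Rab7 did not. Cd14 is also among the macrophage markers used above. The ZBP1 partners Mlkl (4.46) and Casp8 (1.66) rose, whereas Ripk3 was at 0.11 (adjusted p = 0.613). Among the kinases that share the target of PKR, Eif2ak3 (-1.24) and Eif2ak4 (-0.75) fell and Eif2ak1 was at -0.08 (adjusted p = 0.515). Of 6 enzymes that remove or edit self nucleic acid, 3 rose and 2 fell, with Samhd1 (3.00) and Adar (2.94) the largest. Both interferon receptor genes tested, Ifnar1 (1.73) and Ifnar2 (1.65), rose. The interferon genes were too low to test. Ifnb1 was at 8, 5 and 13 in LPS libraries, at 4, 2 and 8 in oxLDL+LPS libraries and at 0 in all 6 libraries without LPS, and Ifna2 and Ifna4 were listed at 0 in all 12. Trex1, an exonuclease that removes cytosolic DNA, was also listed at 0 in all 12, but its annotated exons lie inside exons of Atrip on the same strand, so the listed 0 may come from how overlapping genes were counted and gives no level for Trex1.

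**Figure D4:**
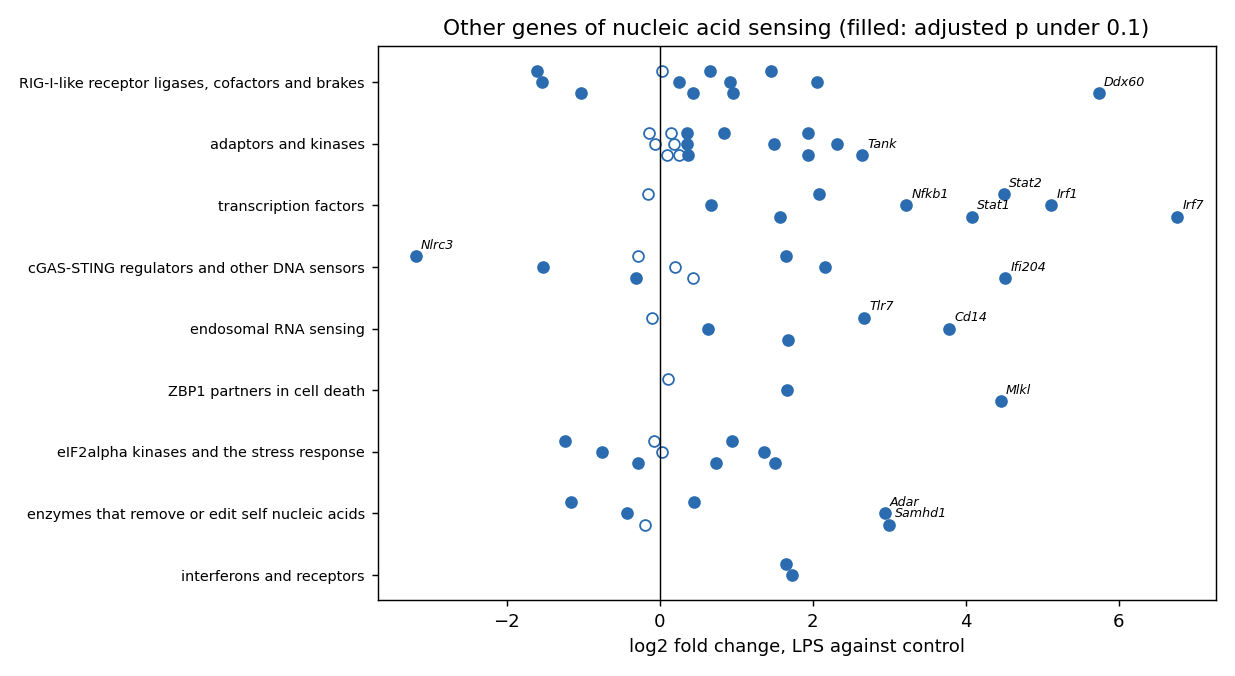
Log2 fold change, LPS against control, of the 70 other genes of nucleic acid sensing that were tested, by role, with filled points for genes with an adjusted p under 0.1. Irf7 at 6.77 is the point farthest right and Nlrc3 at -3.19 the one farthest left, and all but 1 of the 9 transcription factors are filled and to the right of 0.

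Without LPS, the oxLDL comparison gave a call in 0 of the 10 genes and in 0 of 12751 genes tested (0% in limma at an adjusted p under 0.1, with 381 genes at an unadjusted p under 0.05 and none of the 10 among them). With the replicate number as a block, 601 genes were called, 4.71%, and 0 of the 10. The log2 differences of the 10 ran from -0.13 in Ifih1 to 0.18 in Mb21d1. Ifih1 was the 1 gene of the 10 whose groups did not overlap (7.7% of all genes), at 512 to 542 against 556 to 594, with a 95% interval of -0.30 to 0.03. The intervals of Ddx58 (-0.17 to 0.15), Dhx58 (-0.18 to 0.20) and Mavs (-0.18 to 0.23) were narrow, and that of Zbp1 (-0.75 to 0.53) was the widest. As a check of loading, Cd36, Plin2 and Hmox1 were at 0.93, 0.44 and 0.62, and each was called higher with the block but not without it.

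With LPS, the oxLDL comparison again gave a call in 0 of the 10 genes and in 0 of 12786 genes tested (0% in limma, with 890 genes at an unadjusted p under 0.05 and none of the 10 among them). The 5 check genes of LPS treatment were nevertheless all below 0 here, with a median of -1.89. With the replicate number as a block all 5 were called lower (8.74% of all genes). The lack of calls without the block thus does not show that oxLDL left genes unchanged. Of the 10 sensor genes, 9 had differences below 0, and the median of the 10 was -0.22, against -0.01 over all genes tested. In 8 genes the oxLDL+LPS library was below the LPS library at each of the 3 replicate numbers, and in Mavs it was above at each. Mb21d1 was lower at 2 numbers and higher at 1. The share of all genes with such signs was not computed, and the 10 genes come from the same libraries, so their signs are not independent. The lowest value was that of Tlr3, at -0.46 (95% interval -1.04 to 0.11, adjusted p = 0.749). Eif2ak2 was the 1 gene whose groups did not overlap (12.6% of all genes), at 6681 to 7321 against 7851 to 9009, with a log2 difference of -0.24 (95% interval -0.48 to 0.01, adjusted p = 0.709).

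With the replicate number as a block, 4 of the 10 were called, against 13.2% of all genes (4.42% higher and 8.74% lower). Tlr3 was lower, at -0.46 (adjusted p = 0.0304), as were Tmem173 at -0.36 (adjusted p = 0.0569) and Zbp1 at -0.36 (adjusted p = 0.0582), and Mavs was higher, at 0.31 (adjusted p = 0.0522). For Ddx58 (-0.20), Ifih1 (-0.32), Dhx58 (-0.15), Trim25 (-0.17), Eif2ak2 (-0.24) and Mb21d1 (-0.05) the block gave no call, the smallest adjusted p being 0.105 in Eif2ak2. These calls turned on single numbers, since 0 of the 10 were called without number 1, 0 without number 3 and 6 without number 2. Of all genes the block called 1682, 71 without number 1, 2945 without number 2 and 0 without number 3. Each of the 4 genes kept its sign in all of these fits. The sum of the mesothelial and fibroblast markers was 2566 to 15240 in LPS and 2381 to 8870 in oxLDL+LPS libraries, with 5 of 5 markers tested below 0 and 1 called lower with the block, and its part in these differences was not tested.

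**Figure D5:**
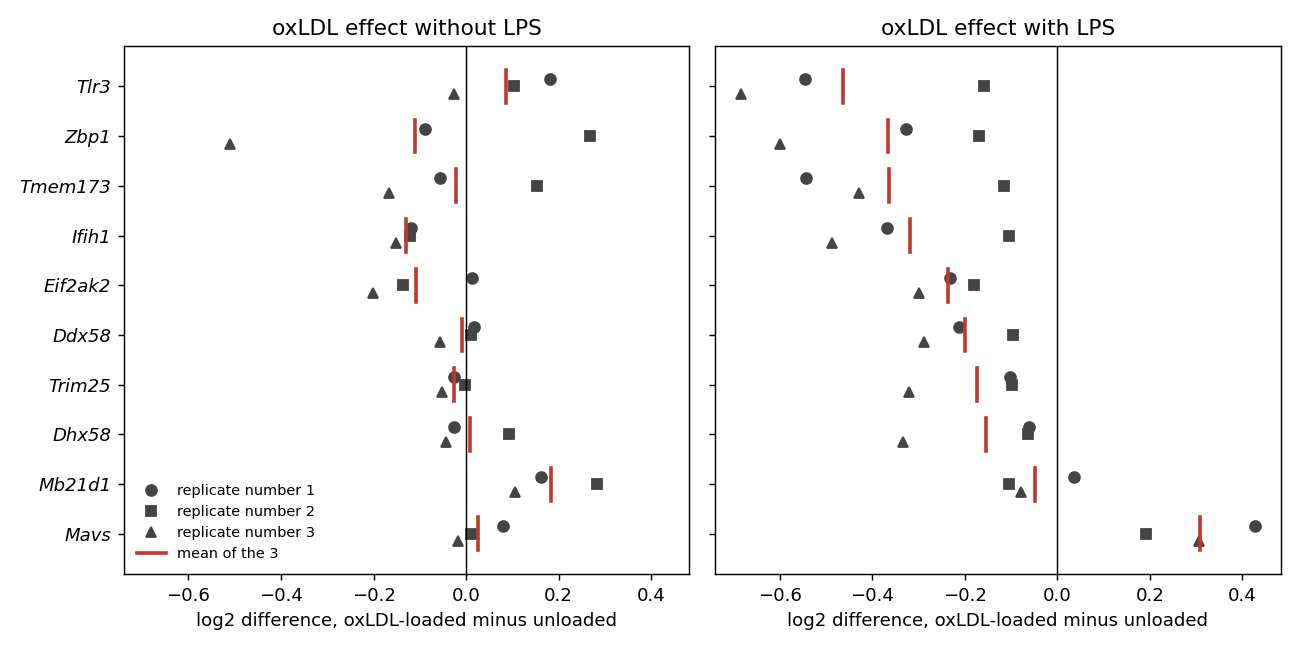
Log2 difference between the oxLDL-loaded and the unloaded library of each replicate number (symbols) and their mean (red line) for the 10 genes, without LPS (left) and with LPS (right), on one scale. Without LPS the means lie between -0.13 and 0.18, whereas with LPS they lie between -0.46 and -0.05 in 9 genes and at 0.31 in Mavs.

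Whether the LPS response differed between oxLDL-loaded and control PMφs was tested as the interaction over all 12 libraries. It was called in 0 of the 10 genes and in 0 of 13482 genes tested (0% in limma, with 418 genes at an unadjusted p under 0.05 and none of the 10 among them), and the block likewise called 0 genes, with 967 at an unadjusted p under 0.05, of which 1, Tlr3, was among the 10. The interaction term was below 0 in 9 of the 10 genes, whose signs are not independent, and above 0 in Mavs (0.28, 95% interval -0.22 to 0.78). It was lowest in Tlr3 (-0.55, 95% interval -1.21 to 0.11, unadjusted p = 0.0931, and with the block -0.996 to -0.103, unadjusted p = 0.0204, adjusted p = 0.669) and in Tmem173 (-0.34, 95% interval -1.13 to 0.45). For Ddx58 the interval was -0.46 to 0.08 and for Eif2ak2 -0.36 to 0.10. Each of the 4 pairwise comparisons shares a group of libraries with 2 of the others, so their values are given side by side and not as independent results.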

How the data were processed

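Per the labels, poly(A) libraries were made with a directional kit from total RNA of 12 PMφ cultures. The submitters' processing notes name Trimmomatic 0.32, STAR 2.5.1b, featureCounts of Subread and the build mm10 (GRCm38). The deposited signal, called the normalized count, is a table of whole numbers for 43278 symbols, 18273 of them at 0 throughout and 25 turned into dates. Within each library the values keep the spacing that remains when counts are scaled by 1 factor, then rounded. Therefore tests for raw counts were not run, and the number of reads behind a library was estimated from that spacing. Groups were compared with limma 3.58.1 (lmFit and eBayes with a trend) in R 4.3.3 on log2 of the value plus 1, on the 6 libraries of a comparison, or on all 12 for the interaction. Fold changes are on that scale, which understates those of low genes. Genes that reached 10 in 3 or more libraries of the comparison were tested, and a Benjamini-Hochberg adjusted p under 0.1, the threshold of the study's methods, was a call. Other values were computed with Python 3.11.15.

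The replicate numbers were taken from the labels. Deviations from group means of libraries with the same number had correlations of 0.68 to 0.71 between control and oxLDL, 0.63 to 0.66 between LPS and oxLDL+LPS, 0.36 to 0.55 between control and LPS and 0.28 to 0.61 between oxLDL and oxLDL+LPS. Libraries with the same number were therefore treated as pairs in a fit with the number as a block. That fit is given beside a result of the 10 genes or of the gene lists where it changes a call or a count. The number 1 libraries with and without LPS differed in their mix of male and female cells and cannot be taken as a single pool. The pairing is thus less sure where LPS is compared with no LPS and in fits over all 12 libraries. Alternatives were this block, pseudocounts of 0.5 and 10, no filter, a filter in every library, upper-quartile and median-of-ratios scaling, no trend, all 12 libraries in 1 fit and each library left out. Equal totals and blocked fits without 1 number were chosen after seeing the data.

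The 10 genes and the gene lists were chosen with earlier results of these data known. Genes were named by rule. The rule takes the 10 in every comparison, the 3 largest rises and falls among called genes of the route list, the 3 genes most like each of the 10, and genes that check the treatments. Further genes of the route list are named for their roles. Positions and exon lengths are from GENCODE vM21 on GRCm38, and sequences from RefSeq on GRCm38.p6.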

Additional observations from a re-analysis of the deposited data

How the results depend on the processing

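With LPS in control PMφs, 9 or 10 of the 10 genes were called under every alternative, and in oxLDL-loaded PMφs 8 to 10. In the comparisons of oxLDL without LPS and of the interaction, 0 were called under every alternative. Between oxLDL+LPS and LPS the count of 0 became 4 with the replicate block, 2 with the block on all 12 libraries, 3 with the block and equal totals, and 0 to 6 with the block and 1 number left out, and it stayed 0 in each unblocked alternative. On the scale as deposited, the block changed no other call of the 10 genes on the 6 libraries of a comparison. With equal totals it added 1, Tmem173 lower for oxLDL+LPS against oxLDL (-0.31, adjusted p = 0.0649). Tmem173 was at -0.059 for LPS against control with equal totals, with and without the block, and its call was also lost with no filter, with upper-quartile scaling (0.19), with no trend and with all 12 libraries. For oxLDL+LPS against oxLDL, Tmem173 was at -0.13 with upper-quartile scaling and -0.31 with equal totals, with and without the block, and Mavs (-0.19) was called with upper-quartile scaling (-0.40), equal totals (-0.58) and the block on all 12 libraries. For oxLDL against control, upper-quartile scaling gave -0.025 for Dhx58 and -0.0088 for Mavs. For oxLDL+LPS against LPS, Mb21d1 was at 0.041 with equal totals, with and without the block. The cause of these shifts was not tested.

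With each library left out in turn, the log2 differences for oxLDL against control crossed 0 in Ddx58 (-0.025 to 0.012), Dhx58 (-0.031 to 0.035), Mavs (-0.027 to 0.083), Zbp1 (-0.33 to 0.085), Tmem173 (-0.17 to 0.092), Trim25 (-0.11 to 0.057) and Tlr3 (-0.038 to 0.18). So did Mb21d1 for oxLDL+LPS against LPS (-0.14 to 0.029) and Tmem173 for oxLDL+LPS against oxLDL (-0.23 to 0.29). In the blocked fits for oxLDL against control, Mavs was at -0.0028 without number 1, Dhx58 at -0.034 without number 2, and Ddx58 at 0.014, Zbp1 at 0.090 and Tmem173 at 0.049 without number 3, and for oxLDL+LPS against oxLDL Tmem173 was at -0.080 without number 2. Over all genes, the unblocked 0 calls for oxLDL against control became 601 with the block, 709 with the block and equal totals, 6 with the block on all 12 libraries, and 214, 139 and 1285 with the block and without number 1, 2 or 3. For oxLDL+LPS against LPS they became 1682, 1574 and 1048 in the same order, 29 with all 12 libraries unblocked, 91 without oxLDL+LPS library 2, and 71, 2945 and 0 with the block and without number 1, 2 or 3. For the interaction they became 6 without oxLDL+LPS library 2 and 9 with the block and without number 2.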

Other observations

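The targets of interferon are a list of 22 genes that includes Ifit1, Isg15, Mx1 and Oas1a, chosen with earlier results of these data known. They rose with LPS, as did 8 of the 10 sensor genes in both comparisons. LPS raised 22 of 22 in control PMφs, with a median log2 fold change of 7.30, and 22 of 22 in oxLDL-loaded PMφs, with a median of 7.22 (limma, adjusted p under 0.1, against 31.4% and 28.2% of all genes tested). With LPS present, oxLDL gave values below 0 in 22 of 22, with a median of -0.25, and 0 were called. With the replicate block 3 were lower, where 8.74% of all genes were lower. Without LPS, 20 of 21 genes tested were below 0, with a median of -0.18, against 6 of the 10 sensor genes and a median of -0.016. Of the 21, 0 were called, or 4 lower with the block. That fit called 372 of all 12751 genes lower, and 4.71% of them in either direction. The share of all genes below 0 was not computed for these comparisons.

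Among the 75 genes of the sensing routes, 0 of the 70 tested were called in either comparison of oxLDL. With the block, oxLDL alone gave 1 higher and 3 lower genes, close to the share of all genes (4.71%), among the latter Ikbke (-0.33, adjusted p = 0.0138) and Stat2 (-0.25, adjusted p = 0.0281). With LPS it gave 3 higher and 11 lower genes, where 4.42% of all genes were higher and 8.74% lower, among the latter Ikbke (-0.45, adjusted p = 0.0370), Ifnar1 (-0.42, adjusted p = 0.0314) and Tlr7 (-0.36, adjusted p = 0.0497), and among the former Ikbkg (0.60, adjusted p = 0.0107) and Trim65 (0.52, adjusted p = 0.0597). These genes were chosen after their values were seen.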
